A study of Danio rerio with 4 samples.

Results

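Cytokine and JAK-STAT signalling genes were followed in hearts of tie1 mutant zebrafish (Danio rerio) and their siblings. They were taken as the rows of the deposited table whose gene symbol begins with il, irf, stat, ccr, csf or tlr and a digit, or with socs, jak, cxc, ccl, tnf, nfkb, rela or relb. This gave 107 of 16662 genes, all on the chromosomes of the GRCz11 annotation in the table, with 2 symbols (il4r.1 and irf1b) standing on 2 rows each. A rule on names also takes in genes with other work, such as il1rapl1a, whose mammalian counterpart is a synaptic adhesion protein, and il17rd, an inhibitor of FGF signalling in zebrafish. The table's KEGG column gave pathways for 53 of the 107, and 27 of these carried the term for cytokine and receptor interaction.

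Cytokines are secreted proteins that bind paired receptor chains on the cell surface. Many of these receptors have no enzyme of their own and use Janus kinases (JAKs), which phosphorylate STAT transcription factors. SOCS proteins, made in response to STATs, then shut the receptor and kinase down. TNF and Toll-like receptors act instead mainly through NF-kB, and interferon regulatory factors (IRFs) carry interferon and innate immune signals. In zebrafish embryos at the stage studied, circulating and tissue macrophages and neutrophils are present, and erythrocytes depend on erythropoietin, its receptor and Jak2.

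The 2 tie1 mutant libraries came from hearts labelled tie1 KO and the 2 sibling libraries from hearts labelled tie1 WT, all at 48 hours post fertilisation (hpf) and all carrying the Tg(kdrl:eGFP) reporter, in which the kdrl promoter drives a green fluorescent protein in endothelial cells. The series' design text names wild-type and heterozygous siblings as the source of controls, so the controls are called siblings. The allele, the number of hearts in a pool and the clutch of each replicate are not given in the labels. Tests here thus cover variation among 4 pools only, which may be technical. The receptor gene tie1 itself had values of 123 and 88 in the mutants, against 558 and 300 in the siblings. Normalised totals were 2648465 and 2365615 in the mutants, against 2413086 and 2154702 in the siblings, and the depth in reads is unknown. Mitochondrial ribosomal RNA took 37.6 to 43.4% of the total in the mutants, against 30.4 to 32.9% in the siblings. The heart muscle markers were abundant in every library, with summed values of 34112 and 19760 in the mutants, against 36028 and 24706 in the siblings.

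Most of the set had low deposited values in these pools. The median gene of the set had a mean value of 17 over the 4 libraries, while the median of the whole table was 25. A mean of at least 10, the minimum for testing, was reached by 68 of the 107 genes (63.6%), against 72.7% of the table. The other 39 had no single value above 16, and 8 of them were at 0 in at least 1 library. The genes il1b, tnfa, tnfb, cxcl8a, cxcr4a and socs1a had no row under these symbols and so were not analysed here. No correction for gene length is stated, so comparisons between genes here are of deposited values and not of transcript levels.

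None of the 68 tested genes passed an adjusted p under 0.05 in limma, where 0 of 12118 genes (0%) passed over the whole table. The smallest adjusted p in the set was 0.351, for socs3a. At an unadjusted p under 0.05, 9 of 68 genes (13.2%) were higher in the mutants, where the background over all tested genes was 2.61%, and 3 (4.41%) were lower, where it was 4.34%. The 9 genes were socs3a, il16, irf9, csf1ra, tnfrsf11a, il10rb, il1rapl1a, stat3 and il6st, and the 3 were jak2a, stat6 and tnfaip2a. Both mutant values lay above both sibling values in 27 genes (39.7%), where the background was 15.7%, and below them in 10 (14.7%), where it was 18.3%. The median log2 fold change of the tested genes was 0.15, against −0.0016 over all tested genes. Per library, the median difference from the sibling mean was 0.12 in both mutants, against 0.04 and −0.04 in the siblings, which lie symmetrically because they make up that mean. With 1 library left out, the count of higher genes in the set was 4 without mutant 1, 9 without mutant 2, 6 without sibling 1 and 5 without sibling 2, beside 267, 185, 235 and 352 of all 12118 genes. In these fits 1 group is a single library, which limma takes to vary like the libraries of the other group. Among the 24 genes with a mean of at least 50, 3 were higher and the median was −0.05, beside 110 of 5411 genes and a median of −0.04 over all genes of that level. Over all genes the counts at that p were 316 higher and 526 lower, and they turned to 452 and 409 after rescaling to totals without mitochondrial ribosomal RNA, where the set had 11 and 3. The list was drawn up with results of these data known.

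**Figure D1:**
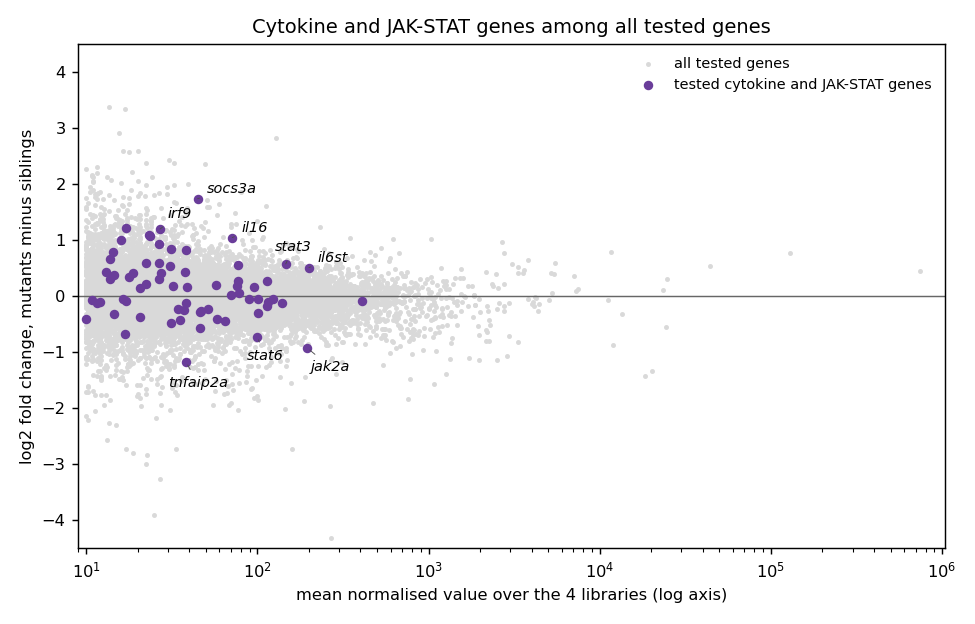
Log2 fold change (tie1 mutants minus siblings, y axis) of each tested gene against its mean normalised value over the 4 libraries (x axis, log scale), with all 12118 tested genes in grey and the 68 tested cytokine and JAK-STAT genes in purple. Labels mark 8 of the 12 genes with an unadjusted p under 0.05, of which socs3a lies highest at 1.74 and tnfaip2a lowest at −1.18, both within the cloud of all genes.

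In the interleukin 6 family route, the shared receptor, its STAT and its feedback inhibitors had higher values in the mutants, while the kinase gene jak2a had lower ones. No gene of the route passed the threshold over all genes. The gene il6st encodes gp130, the receptor chain that all cytokines of this family share. It had normalised values of 260 and 211 in the mutants, against 171 and 158 in the siblings. Its means were 235.5 ± 34.6 and 164.5 ± 9.19 (SD, 2 libraries each), and the log2 fold change was 0.51 ± 0.22 (standard error, SE, as after each log2 value; limma adjusted p 0.713). The gene spans chr10:5788620-5821584 (GRCz11, minus strand).

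The STAT that gp130 mainly uses, stat3, had 194 and 157 in the mutants, against 106 and 129 in the siblings. Its difference was 0.57 ± 0.23 (limma adjusted p 0.709). The groups did not overlap in either gene, though sibling 2 stood closer to the mutants in stat3. The stat3 gene spans chr3:17030665-17107445 (plus strand). In mammals SOCS3 is a direct target of STAT3 and binds gp130 to end the signal, and zebrafish have 2 copies of its gene. The copy socs3a had 91 and 48 in the mutants, against 26 and 14 in the siblings, with means of 69.5 ± 30.4 and 20.0 ± 8.49 (SD, 2 libraries each). At 1.74 ± 0.41 on the log2 scale, 3.34-fold, it had the largest difference of the 68 tested genes (limma adjusted p 0.351). Here the spread within each group was wide, since mutant 1 had nearly double the value of mutant 2 and sibling 1 nearly double that of sibling 2. It spans chr3:57423137-57425961 (minus strand). The copy socs3b had 70 and 31 in the mutants, against 27 and 25 in the siblings, at 0.82 ± 0.40 (limma adjusted p 0.742). For socs3b the groups were separated only narrowly, by mutant 2 at 31 against sibling 1 at 27, and its span overlaps pgs1 on the other strand. With each library left out in turn, an unadjusted limma p under 0.05 held in 2 of 4 fits for socs3a, in 1 for il6st and in 0 for stat3.

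The ligand gene il11a was listed at 10 and 8 in the mutants and at 0 in both siblings. It encodes interleukin 11, a cytokine that signals through gp130, spans chr16:12611362-12617155 (plus strand), and was singled out after its values were seen. Its mean of 4.5 kept it out of the test, and its unadjusted limma p was 0.0056 when all rows were fitted. In that fit 508 of 16662 genes were higher at an unadjusted p under 0.05, and 0 passed the adjusted threshold. The values of il11a are near the bottom of the scale, and no fold is given against a group at 0. The receptor chain specific to this ligand is encoded by il11ra. It had 105 and 77 in the mutants, against 126 and 98 in the siblings, at −0.30 ± 0.26, and the groups overlapped. The receptor gene il6r had 4 and 12 in the mutants, against 5 and 15 in the siblings, and was not tested. Of related receptors from the list of pathway genes outside the naming rule, the LIF receptor gene lifra stood at −0.14 ± 0.24 and the CNTF receptor gene cntfr at −0.30 ± 0.26. The groups overlapped for lifra, while cntfr was lower in both mutants, where the background was 18.3%.

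**Figure D2:**
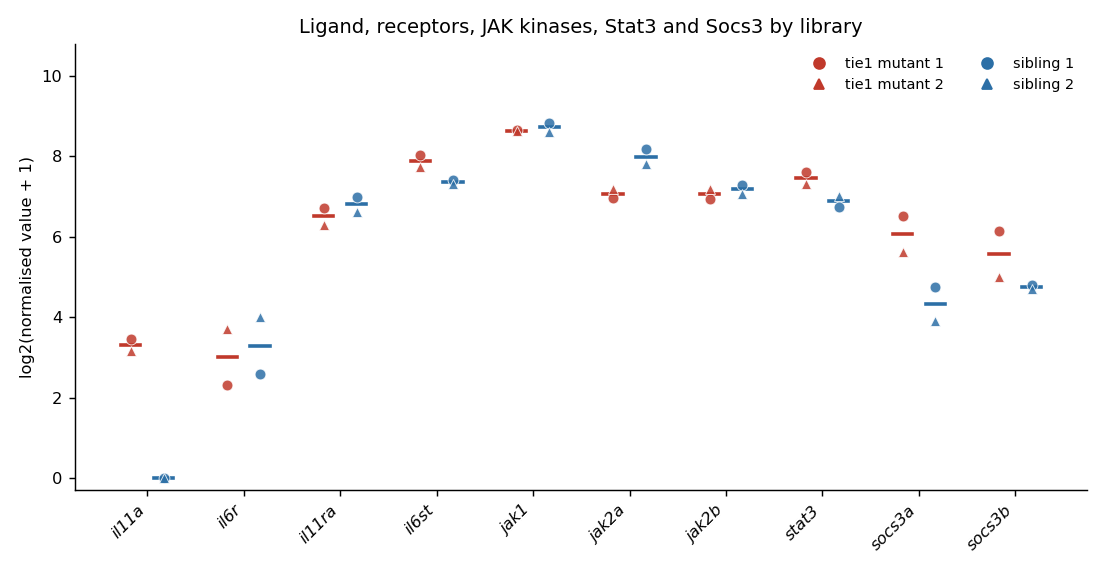
Normalised values on a log2(value + 1) axis of the ligand gene il11a, the receptor genes il6r, il11ra and il6st, 3 JAK genes, stat3 and both socs3 copies, with tie1 mutants in red left of siblings in blue. Circles are replicate 1, triangles replicate 2 and bars the mean of the 2 libraries of a group; il6st, stat3, socs3a and socs3b lie higher in both mutants and jak2a lower, while jak1, jak2b, il6r and il11ra overlap.

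Among the Janus kinases, jak2a had lower values in both mutants while jak1 and jak2b overlapped between the groups. The gene jak2a had 124 and 144 in the mutants, against 289 and 224 in the siblings. Its means were 134 ± 14.1 and 256.5 ± 46.0 (SD, 2 libraries each). The log2 fold change was −0.92 ± 0.23, or 0.527-fold (limma adjusted p 0.399), and an unadjusted p under 0.05 was found in 3 of the 4 fits that left out 1 library. It spans chr21:249970-294747 (plus strand) and overlaps plgrkt, which is on the other strand. That neighbour had 52 and 43 in the mutants, against 22 and 21 in the siblings, opposite in direction to jak2a. No source used here gives the strand setting of the counting, so reads of overlapping genes may not be separable. The paralog jak2b had 121 and 145 in the mutants, against 156 and 134 in the siblings, at −0.13 ± 0.23. The gene jak1, which had the highest deposited values of the set, had 400 and 396 in the mutants, against 455 and 390 in the siblings, at −0.08 ± 0.20. Within libraries, the ratio of jak2a to jak2b was 1.02 and 0.993 in the mutants, against 1.85 and 1.67 in the siblings. This ratio, chosen after the values were seen, does not depend on the scaling of libraries. The kinase gene jak3, of lymphoid cytokine receptors in mammals, had values of at most 4 in each library.

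Erythroid genes had lower values together with jak2a, which in zebrafish is active in erythroid precursors. They were not alone, since 4 of 6 skeletal muscle markers were also lower in both mutants and 0 higher in both. All 8 erythrocyte markers with a row, of 9 fixed, were lower in both mutants, with summed values of 5092 and 4715 in the mutants, against 13132 and 11259 in the siblings. None of the 8 was at 0 in a library, and the background of genes lower in both mutants was 18.3%. Per 1000 of that sum, jak2a had 24.4 and 30.5 in the mutants, against 22 and 19.9 in the siblings. The erythropoietin receptor gene epor, which signals through Jak2, had 11 and 1 in the mutants, against 43 and 34 in the siblings. The log2 fold change of epor was −3.00 ± 0.77. Its mutant mean of 6.0 was under the minimum for testing, so epor was tested only because of its sibling values. The mutant values of epor lay far apart, so the size of its difference is uncertain. The part of erythrocyte content in the jak2a difference was not tested, and in such pools fewer cells of a type and less RNA per cell cannot be told apart. The STAT5 genes, which act below this receptor, showed no such separation. The gene stat5a had 18 and 56 in the mutants, against 40 and 36 in the siblings, and stat5b had 134 and 108 in the mutants, against 116 and 135 in the siblings.

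**Figure D3:**
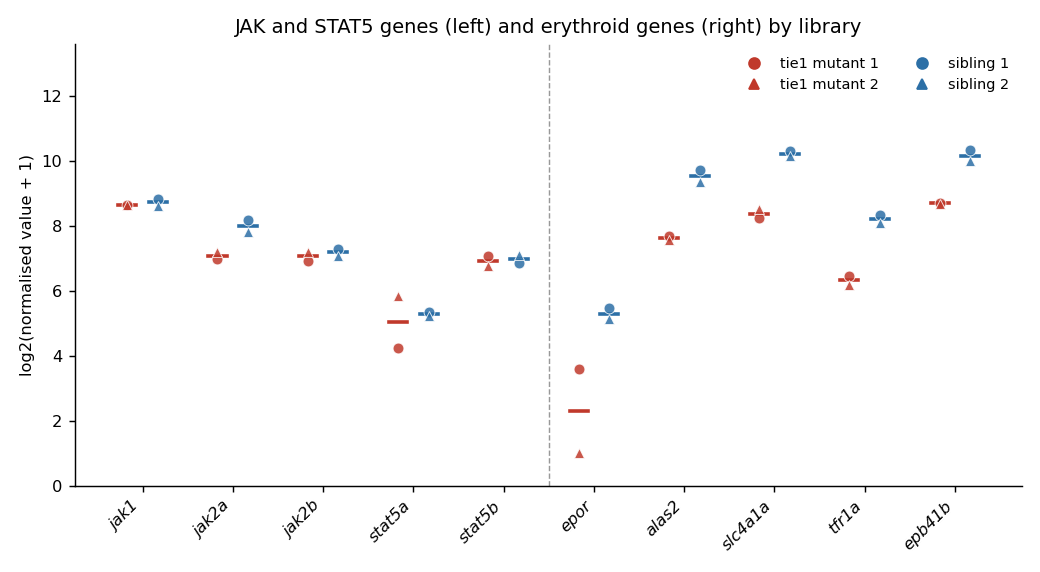
Normalised values on a log2(value + 1) axis of the JAK and STAT5 genes (left of the dashed line) and of 5 erythroid genes (right of it), with tie1 mutants in red left of siblings in blue. Circles are replicate 1, triangles replicate 2 and bars the mean of the 2 libraries of a group; jak2a and all 5 erythroid genes lie lower in both mutants, while jak1, jak2b and both STAT5 genes overlap.

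The other STAT factors went different ways. The gene stat6, whose product carries interleukin 4 and 13 signals, had 74 and 76 in the mutants, against 122 and 127 in the siblings. The 2 libraries of each group lay close together, with means of 75.0 ± 1.41 and 124.5 ± 3.54 (SD, 2 libraries each). The difference was −0.72 ± 0.22 (limma adjusted p 0.549). With 1 library left out, the log2 fold change ran from −0.75 to −0.69. The receptor genes of these ligands stood the other way. The row of il4r.1 that was tested (ENSDARG00000102583) had 29 and 15 in the mutants, against 10 and 10 in the siblings, at 0.99 ± 0.47. The second row (ENSDARG00000116052), its neighbour on chromosome 3, had 9 and 16, against 2 and 8, and reads may be split between these copies. The receptor gene il13ra1 had 29 and 25 in the mutants, against 18 and 17 in the siblings, at 0.59 ± 0.35. Both receptor genes were singled out after their values were seen, and none of these differences passed the threshold.

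The interferon STAT gene stat2 had 23 and 37 in the mutants, against 48 and 33 in the siblings, at −0.43 ± 0.35, and the groups overlapped. The gene irf9, whose product partners STAT2 in the interferon response, had 41 and 35 in the mutants, against 15 and 17 in the siblings. The gene, at chr12:13282797-13306883 (plus strand), differed by 1.2 ± 0.33 on the log2 scale (limma adjusted p 0.449). The interferon gamma receptor gene ifngr1, from the list outside the naming rule, had 9 and 7 in the mutants, against 27 and 21 in the siblings. The lymphoid gene stat4 had values of at most 5.

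Of all 9 SOCS rows, 8 were tested, socs3a and socs3b included, with 4 above and 4 below 0 and a median log2 fold change of 0.04. The gene socs6a had 33 and 31 in the mutants, against 19 and 23 in the siblings, at 0.59 ± 0.33. In the other direction, socs5b had 46 and 53 in the mutants, against 74 and 58 in the siblings, at −0.40 ± 0.27. The genes socs5a, socs6b, socs7 and socs9 lay between −0.23 ± 0.34 and 0.16 ± 0.28. Outside the naming rule stood cish, a SOCS family gene and STAT5 target in mammals. It had 38 and 17 in the mutants, against 8 and 10 in the siblings, at 1.41 ± 0.49. Its sibling mean of 9.0 was under the minimum of 10.

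Of the receptor genes of myeloid growth factors, csf1ra and csf3r had higher values in both mutants and csf1rb overlapped. The gene csf1ra encodes a receptor for colony-stimulating factor 1 that marks macrophages and, in zebrafish, also yellow pigment cells. It had 31 and 33 in the mutants, against 13 and 16 in the siblings, with means of 32.0 ± 1.41 and 14.5 ± 2.12 (SD, 2 libraries each). It differed by 1.1 ± 0.35 on the log2 scale (limma adjusted p 0.569). It spans chr14:3143337-3180947 (minus strand). The paralog csf1rb had 8 and 7 in the mutants, against 7 and 8 in the siblings. The granulocyte receptor gene csf3r had 17 and 19 in the mutants, against 7 and 14 in the siblings, at 0.79 ± 0.49. Of the ligands, csf1a, csf3a and il34 had no value above 9 in any library. The transcription factor gene irf8, which directs macrophage fate in zebrafish, had 6 and 7 in the mutants, against 1 and 2 in the siblings, too low to be tested.

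Summed macrophage markers were higher in both mutants as well. Of 10 macrophage markers fixed, 9 had a row, 4 were tested and none was at 0. In 4 of the 9 both mutant values lay above both sibling values, with 0 below. The background above was 15.7% of tested genes and 16.8% of those under the minimum. Of those above, mfap4 and marco were too low to be tested. The genes ptprc, cd74a, lgals9l1, coro1a and lcp1 overlapped, with ptprc at −0.31 ± 0.51 and lcp1 at 0.58 ± 0.36. Summed macrophage values were 123 and 189 in the mutants, against 92 and 107 in the siblings. The defining gene mpeg1.1 had 29 and 27 in the mutants, against 6 and 17 in the siblings, and mfap4 had 6 and 23, against 1 and 4. Per 1000 of the summed macrophage markers, csf1ra had 252 and 175 in the mutants, against 141 and 150 in the siblings. The ratio of csf1ra to mpeg1.1 alone overlapped, with 1.07 and 1.22 in the mutants, against 2.17 and 0.941 in the siblings. Neutrophil markers summed to 238 and 278 in the mutants, against 190 and 231 in the siblings, and in 1 of 7, cebpa, both mutant values lay above both sibling values. The defining genes mpx and npsn overlapped, with 29 and 76 against 26 and 58 for mpx. The part of leukocyte content in the csf1ra, csf3r and irf8 values was not tested, nor was that of yellow pigment cells in the csf1ra values.

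**Figure D4:**
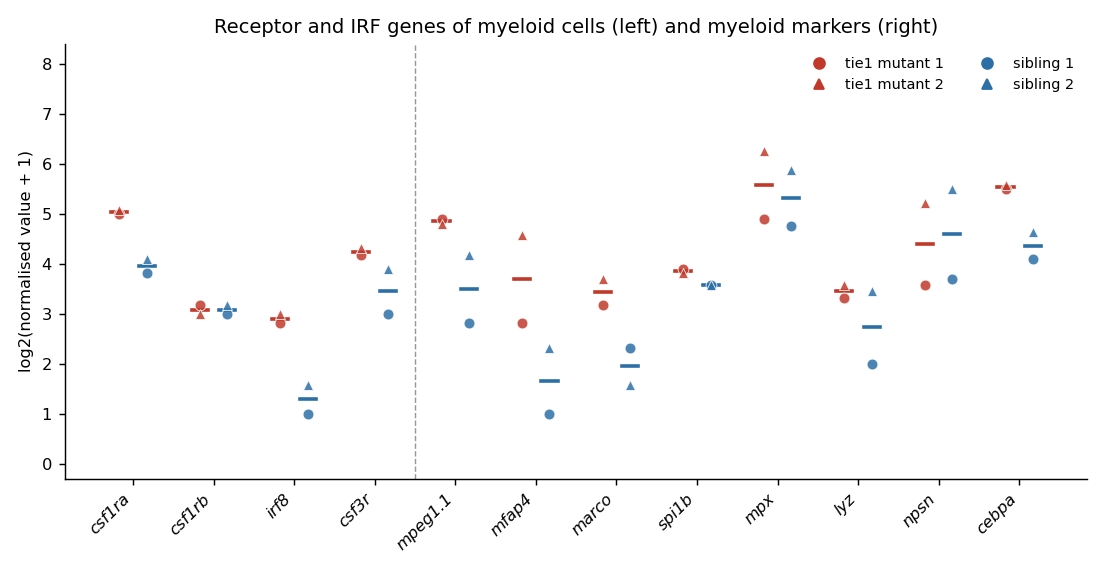
Normalised values on a log2(value + 1) axis of csf1ra, csf1rb, irf8 and csf3r (left of the dashed line) and of 8 myeloid markers (right of it), with tie1 mutants in red left of siblings in blue. Circles are replicate 1, triangles replicate 2 and bars the mean of the 2 libraries of a group; csf1ra, irf8, csf3r, mpeg1.1, mfap4, marco, spi1b and cebpa lie higher in both mutants, while csf1rb, mpx, lyz and npsn overlap.

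Among the other interleukin genes, 6 of 8 tested had both mutant values above both sibling values, where the background was 15.7%. The 6 include il17rd and il1rapl1a, which the naming rule takes in though they have other work. The gene il16, whose precursor protein is cut to a chemoattractant of CD4-bearing cells in mammals, had 85 and 108 in the mutants, against 44 and 48 in the siblings. The gene, at chr7:11459235-11624833 (plus strand), differed by 1.04 ± 0.26 on the log2 scale, 2.06-fold (limma adjusted p 0.399). With 1 library left out, the difference ran from 0.87 to 1.21. The gene il10rb, a receptor chain shared by interleukin 10 and its relatives, had 38 and 32 in the mutants, against 20 and 16 in the siblings, at 0.93 ± 0.34. The FGF inhibitor gene il17rd had 38 and 41 in the mutants, against 15 and 31 in the siblings, at 0.84 ± 0.39. The synaptic gene il1rapl1a had 24 and 41 in the mutants, against 16 and 13 in the siblings, at 1.07 ± 0.40, and its span overlaps cmss1 on the other strand. Neural markers were present too, with summed values of 375 and 220 in the mutants, against 280 and 77 in the siblings. Of 8 neural markers, 4 were higher in both mutants, where the background was 15.7% of tested genes. Of these, gap43 and stmn2a had values of at most 9 and were not tested. The marker with the highest mean, elavl3, overlapped, with 222 and 72 in the mutants, against 146 and 11 in the siblings. The genes stmn2a and nefma were each at 0 in 1 sibling library. Per 1000 of the summed neural markers, il1rapl1a had 64.0 and 186 in the mutants, against 57.1 and 169 in the siblings. The part of neural tissue in the il1rapl1a value was not tested. With each library left out in turn, an unadjusted limma p under 0.05 held in 2 of 4 fits for il10rb and in 1 for il1rapl1a. The genes il17rc and il12rb2l overlapped between the groups.

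Of 4 tested chemokine genes, 1 was separated between the groups, cxcl12a, which was lower in both mutants, where the background was 18.3%. The chemokines Cxcl12a and Cxcl12b guide migrating cells and vessels through Cxcr4 receptors. For cxcl12a the values were 53 and 55 in the mutants, against 61 and 90 in the siblings, at −0.45 ± 0.28. For cxcl12b they were 45 and 49 in the mutants, against 47 and 65 in the siblings, at −0.23 ± 0.28. The scavenging receptor gene ackr3b, from the list outside the naming rule, had 75 and 69 in the mutants, against 92 and 110 in the siblings, at −0.48 ± 0.24. The receptor gene cxcr4b had 0 and 4 in the mutants, against 4 and 0 in the siblings. The genes cxcl14 and cxcr3.3 overlapped, and ccl34a.4, ccr6a, ccr9b and cxcr3.1 had means under 10, with ccl34a.4 at 15 and 4 in the mutants, against 1 and 2 in the siblings.

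Among TNF family and TNF-induced genes, the receptor gene tnfrsf11a was higher and the TNF-induced gene tnfaip2a lower in both mutants. Mutant values were both above both sibling values in 2 of 6 receptor, 2 of 2 ligand and 3 of 4 TNF-induced genes tested. They were both below in 0, 0 and 1 of these, where the background was 15.7% above and 18.3% below. The gene tnfrsf11a encodes RANK, a receptor that acts on NF-kB, and had 25 and 23 in the mutants, against 12 and 8 in the siblings. The log2 fold change was 1.21 ± 0.43 (limma adjusted p 0.634), and an unadjusted p under 0.05 held in 1 of the 4 fits that left out a library. The main TNF receptor gene tnfrsf1a had 126 and 63 in the mutants, against 63 and 58 in the siblings, so that mutant 1 alone stood apart. The difference was 0.55 ± 0.33. The receptor genes tnfrsf1b, at 0.41 ± 0.48, and tnfrsfa, at −0.11 ± 0.24, overlapped between the groups. The ligand genes tnfsf10 and tnfsf10l, of the death ligand TRAIL, stood at 0.66 ± 0.48 and 0.16 ± 0.23.

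The gene tnfaip2a, whose mammalian counterpart is induced by TNF in endothelial cells, had 32 and 16 in the mutants, against 54 and 51 in the siblings. It differed by −1.18 ± 0.37 on the log2 scale (limma adjusted p 0.549), and without 1 library by −1.65 to −0.70, with an unadjusted p under 0.05 in 1 of those 4 fits. Endothelial and endocardial markers summed to 3573 and 2174 in the mutants, against 5149 and 3313 in the siblings, and none was at 0. Of the 10, 4 were lower in both mutants and 0 higher in both, where the background was 18.3% and 15.7%. Per 1000 of that sum, tnfaip2a had 8.96 and 7.36 in the mutants, against 10.5 and 15.4 in the siblings, and the part of endothelial content was not tested. The inhibitor gene tnfaip3, an NF-kB target that edits ubiquitin chains, had 38 and 25 in the mutants, against 22 and 24 in the siblings, at 0.41 ± 0.35.

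Among genes of NF-kB itself, 3 of 10 had both mutant values above both sibling values (nfkbib, nfkbie and nfkbiz), where the background was 15.7%. In 4 they lay below them (relb, rela, nfkb2 and the inhibitor gene nfkbiab), where it was 18.3%, and none of the 10 had an unadjusted p under 0.05. All 10 rows were tested, with a median log2 fold change of 0.03, 5 above and 5 below 0. The subunit gene relb had 31 and 44 in the mutants, against 51 and 60 in the siblings, at −0.57 ± 0.29. The subunit gene rela had 28 and 24 in the mutants, against 32 and 42 in the siblings, at −0.48 ± 0.32. Of the precursor subunits, nfkb2 stood at −0.26 ± 0.27 and nfkb1 at 0.14 ± 0.37. The inhibitor genes nfkbib, nfkbie and nfkbiz lay between 0.19 ± 0.24 and 0.38 ± 0.43. The feedback inhibitors nfkbiaa and nfkbiab stood at 0.30 ± 0.41 and −0.28 ± 0.29, and the span of nfkbiaa overlaps psma6b on the other strand.

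Apart from irf9, no IRF gene and no Toll-like receptor gene had an unadjusted p under 0.05 in limma. The gene irf7, an amplifier of interferon responses, had 17 and 9 in the mutants, against 19 and 22 in the siblings, at −0.68 ± 0.45. The genes irf2, irf2a, irf5 and the tested row of irf1b lay between −0.37 ± 0.46 and 0.31 ± 0.49. The 4 IRF2-binding genes, general transcription regulators, lay between −0.19 and 0.27. The flagellin receptor gene tlr5b had 113 and 64 in the mutants, against 110 and 70 in the siblings, and its span overlaps thbd on the same strand. The genes tlr3 and tlr7 overlapped between the groups, at 0.42 ± 0.47 and −0.13 ± 0.65.

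**Figure D5:**
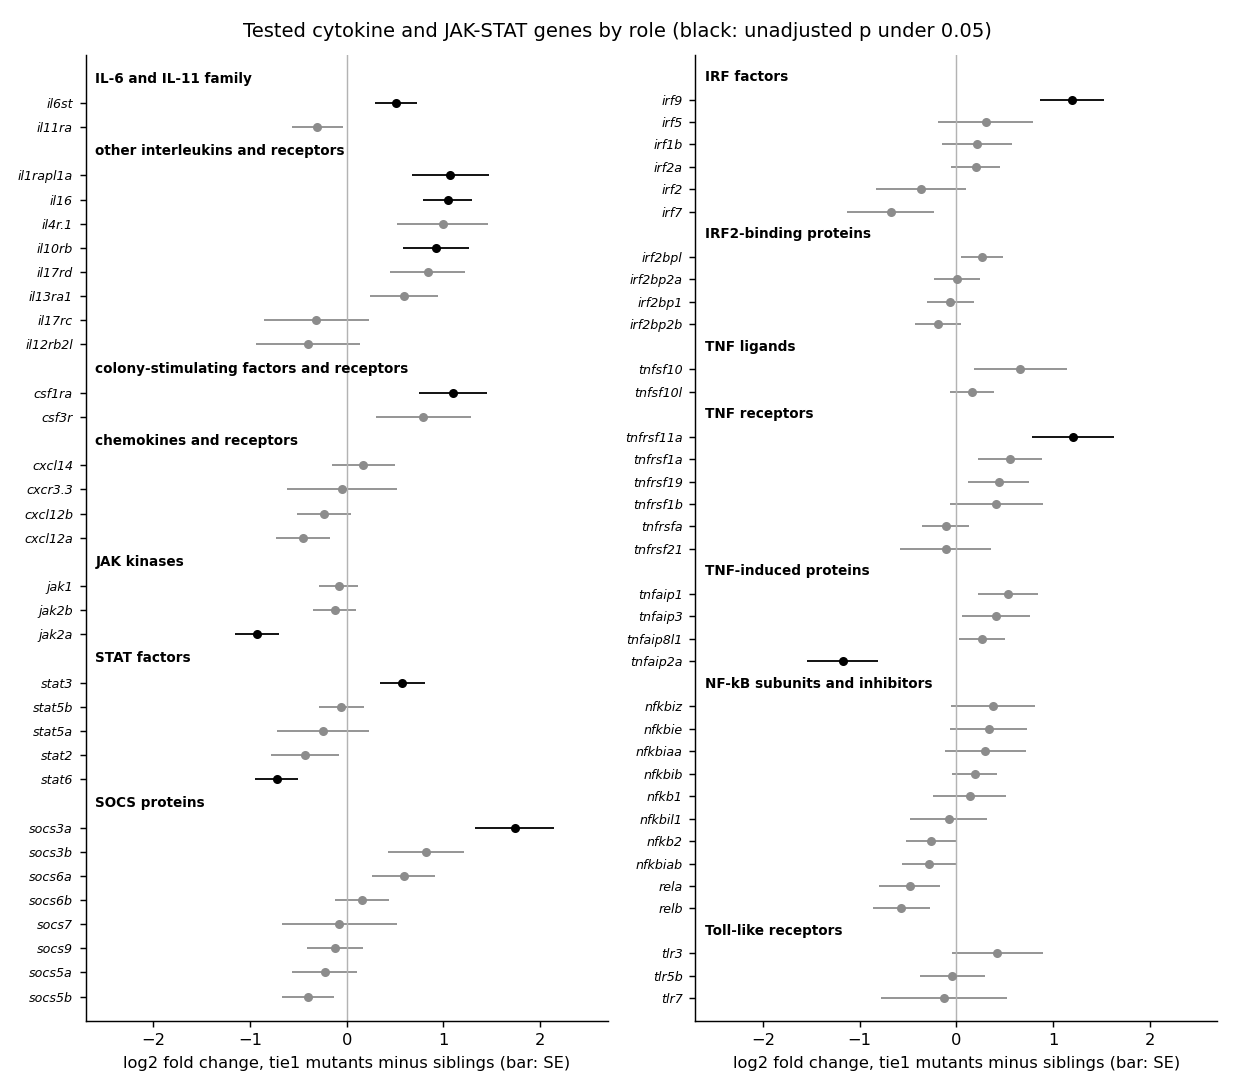
Log2 fold change (tie1 mutants minus siblings, x axis) with its standard error as a bar for 67 of the 68 tested genes, grouped by role. Black points mark the 12 genes with an unadjusted p under 0.05, 9 to the right of 0 and 3 to the left, and none passed the adjusted threshold.

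Among the 39 genes with a mean under 10, both mutant values lay above both sibling values in 9 and below them in 2, and the groups overlapped in 28. Over all 4544 genes of the table under that mean, the shares were 16.8% above and 11.9% below. The 9 included il11a, irf8, ccl34a.4, ccr6a, the second rows of il4r.1 and irf1b, the feedback inhibitor gene socs2 and the Toll-like receptor gene tlr4ba. The row of irf1b (ENSDARG00000043249) had 6 and 3 in the mutants, against 0 and 1 in the siblings, and socs2 had 11 and 12, against 4 and 8. The 2 were irf4a, with 1 and 1 in the mutants, against 4 and 2 in the siblings, and the ligand gene csf3a, with 2 and 1, against 3 and 5. Those with overlapping groups included the 3 jakmip genes, whose products bind Janus kinases and microtubules in mammals. They also included 9 TNF ligand, TNF receptor or TNF-induced genes, such as the BAFF gene tnfsf13b and the RANK ligand decoy receptor gene tnfrsf11b.

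Of 82 listed pathway genes outside the naming rule (receptors, regulators, NF-kB route genes and targets), 65 had a row and 53 were tested. None passed the adjusted threshold in limma, and at an unadjusted p under 0.05, 3 were higher and 2 lower, where the background was 2.61% and 4.34%. Both mutant values lay above both sibling values in 7 and below them in 11, where it was 15.7% and 18.3%. The 3 were cish, the AP-1 gene junbb, with 34 and 25 in the mutants against 7 and 16 in the siblings, and the scavenging chemokine receptor gene ackr4b. The 2 were epor and ifngr1. Both had mutant means under the minimum of 10, at 6.0 and 8.0, and were tested only because of their sibling values. The sibling mean of cish, 9.0, was likewise under it. The median log2 fold change of the 53 was −0.05. By list it was −0.17 for receptors and ligands, −0.17 for kinases and regulators, 0.07 for the NF-kB route and 0.54 for targets. Of 20 targets listed, 11 had a row and 9 were tested, with 3 above, 1 below and 5 overlapping between the groups. Among the targets, pim1, a kinase gene induced by STAT3 and STAT5 in mammals, had 208 and 153 in the mutants, against 150 and 87 in the siblings, at 0.64 ± 0.30. Of the cell survival genes, mcl1a stood at −0.26 ± 0.26, bcl2l1 at −0.36 ± 0.29 and mcl1b at 0.28 ± 0.22. The adaptor gene myd88 and the kinase gene map3k7 stood at −0.19 ± 0.44 and −0.02 ± 0.23.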

How the data were processed

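Hearts were pooled by genotype into 4 samples, and a DNase step preceded a low-input stranded total RNA kit, loaded with 2 ng each, per the labels' protocols. The submitters' processing notes list FastQC, Subread, STAR 2.4.0a, featureCounts 1.4.5-p1 and GRCz11 (danRer11), with no roles. How values were normalised, filtered and assigned to strands is not stated there. The authors deposited 1 table of normalised whole numbers, handled as a score and not as reads. Gene sequences were not used here.

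Each value was taken as log2(value + 1), which understates changes of low genes. A mean of at least 10 was required. Groups were compared with limma 3.58.1 (R 4.3.3, trended variance), with two-sided p-values, Benjamini-Hochberg adjustment over 12118 tested genes and a threshold of 0.05. The script was tested on simulated data. For 2 libraries against 2, an exact permutation p is at least 0.333, so none was used.

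Named were the 10 tested genes with the smallest p in each direction, the 8 with the highest mean and 42 fixed by role, of which 31 had a row. Other genes of the set were named after their values were seen. The genes, lists and rules were chosen with earlier results of these data known. Roles given are background knowledge. Alternatives changed the pseudocount, filter, scaling, variance model, libraries and pairing, with TMM factors computed on the deposited values by a script of their formula. Results for some genes of the set are not reported here.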

Additional observations from a re-analysis of the deposited data

How the results depend on the processing

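Of 14 alternatives, only the replicate block put a gene of the set past the adjusted threshold. The replicate numbers of the titles do not state a shared clutch or day, and with only 2 pairs the deviations of same-numbered libraries correlated at 0.198 over genes. With the number as a block, 95 genes passed over the table and 1 of the set, socs3a, at a limma adjusted p of 0.0282, which ran from 0.171 to 0.902 under the other settings. Over all genes, 13 passed with a mean of at least 50, 8 after TMM scaling, 5 after rescaling to totals without mitochondrial ribosomal RNA and 16 with the robust setting. The count of higher genes in the set at an unadjusted p was 3 with a mean of at least 50, where 24 genes were left, and 4 to 9 with 1 library left out. The set's higher count was 9 in the main fit, 8 with no mean-variance trend and 10 with no filter on low values. It was 11 with the replicate block and 11 without mitochondrial ribosomal RNA. Over all genes the higher counts were 110 with a mean of at least 50, 316 in the main fit and 378 with no trend. They were 508 with no filter, 565 with the replicate block and 452 without mitochondrial ribosomal RNA. The set's lower count was 2 or 3 with all 4 libraries kept. Over all genes it ran from 327 with a mean of at least 50 to 814 with the replicate block. In the main fit the lower share of the set, 4.41%, was near the 4.34% over all genes. The median log2 fold change of the set turned to −0.0504 with a mean of at least 50, a filter that changed which genes were counted. It came to 0.215 without mitochondrial ribosomal RNA, and ran from 0.10 to 0.12 with 1 library left out. Over all genes the medians were −0.0405, 0.0648 and −0.0283 to 0.0021. The set's median less that of all genes was 0.1507 in the main fit and 0.1502 without mitochondrial ribosomal RNA. The cause of this offset was not tested. Of 39 named and tested genes, 23 lay more than 1 SE from 0 and none of these changed sign, while the others did so 24 times. The 524 values compared cover all 39 genes and all 14 alternatives, so 524 is not the base of these 24 changes. These counts cannot decide how stable the signs are, because many of the 39 were named for their p in these data. In addition, many of the values could not change sign. The filters, the variance models and the replicate block left the log2 fold change of each tested gene as it was. Leaving out 1 library cannot turn the sign of a gene whose groups did not overlap. Low values kept 39 of 107 genes out of the test, and 2 libraries a group limit it for the others.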

Other observations

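The summed value of the 107 genes was 4296 and 4036 in the mutants, against 4070 and 3843 in the siblings. Per 100000 of each library's total without mitochondrial ribosomal RNA, this was 286.8 and 273.6 in the mutants, against 251.4 and 256.1 in the siblings, while per 100000 of the whole total it was 162.2 and 170.6 in the mutants, against 168.7 and 178.4 in the siblings. Of the 107 spans, 11 overlapped another gene of the table. The row of irf1b that was tested (ENSDARG00000110357) overlaps faxdc2 on the other strand, which had 14 and 15 in the mutants, against 35 and 31 in the siblings. The ratio of csf1ra to its paralog csf1rb was 3.88 and 4.71 in the mutants, against 1.86 and 2.0 in the siblings. Its denominator csf1rb had a mean of 7.5, under the minimum of 10, so this ratio is coarse. That of stat6 to stat3 was 0.381 and 0.484 in the mutants, against 1.15 and 0.984 in the siblings. Both ratios were chosen after the values were seen.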
